A study of Mus musculus with 2 samples.

Results

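Diacylglycerol reaches more proteins than protein kinase C. The 10 genes described here encode the 3 protein kinases D (Prkd1, Prkd2, Prkd3), 3 diacylglycerol kinases (Dgka, Dgkz, Dgkh) and the 4 RasGRP exchange factors (Rasgrp1 to Rasgrp4). They were chosen by name, and all 10 were found among the 32285 genes of the deposited files. Subcutaneous tumours of CMT167R, a mouse lung carcinoma line labelled as resistant to anti-PD1, were grown in C57BL/6 mice of wild-type genotype and profiled as single cells. The control library came from mice given solvent and the PKCi library from mice given 3 mg/kg of the compound labelled PKCi each day into the peritoneum. Both share the cell line, the host strain and the harvest time, set when control tumours reached 400 mm3. The labels give neither the chemical identity of PKCi nor the number of mice behind a library. With 1 library per treatment there is no spread between samples and no test, so every difference between treatments below is a difference between 2 libraries.

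Diacylglycerol is a membrane lipid released by phospholipase C when receptors are engaged, and proteins with a C1 domain bind it. Protein kinases D are activated by diacylglycerol and by protein kinase C, and they act on Golgi transport and on class II histone deacetylases. RasGRP proteins are drawn to the membrane by diacylglycerol and load Ras and Rap GTPases with GTP, while diacylglycerol kinases convert the lipid into phosphatidic acid and so end its signal. In T cells RasGRP1 links the antigen receptor to Ras, and the alpha and zeta kinases oppose it.

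The libraries held 6688 (control) and 7457 (PKCi) barcodes with 222641855 and 229219749 unique molecular identifiers (UMIs), and 6269 and 7078 cells were kept, with medians of 32992 and 29550.5 UMIs. The libraries shared 20 barcode sequences, 18 of them kept in both. Clusters were named from marker genes, since no deposited annotation was used, and the class names are therefore rebuilt. The Krt8-rich main population had 4874 and 5392 cells, monocyte-like cells 433 and 465, macrophage-like cells 291 and 542, and neutrophil-like cells 298 and 189. The other classes were small. They comprised 36 and 92 T-like, 25 and 51 NK-like, 29 and 61 dendritic-like, 13 and 25 endothelial-like, 24 and 24 fibroblast-like and 9 and 7 pericyte-like cells. A cluster of 30 and 24 cells with 8 T cell markers and led by Ikzf2, Tnfrsf4 and Icos stayed unnamed, since its depth was low and none of those markers was among its 10 leading genes, and is called the Foxp3 cluster. Krt8, the keratin of the main population, gives a measure of free RNA from it: its level there was 381 and 482 CPM (counts per 1000000 UMIs of a summed class). Monocyte-like cells showed 27.4 and 32.5 CPM of Krt8, macrophage-like cells 29.2 and 44.7, and neutrophil-like cells 122 and 291. The 8 neutrophil markers summed to 90861 and 22497 CPM in neutrophil-like cells, so the PKCi library has lower levels of that class's own markers and more Krt8, and the part of this in any neutrophil-like difference was not tested. Levels below are CPM of summed UMIs, and bracketed intervals are 95% and cover counting error only. A gene's CPM also depends on how well its 3' end is captured, so levels are compared within a gene and not between genes.

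RefSeq promoter sequences (build GRCm38.p6) were matched for 9 of the 10 genes, all but Rasgrp4. Those of a gene with UMIs in every class (Prkd3), of the member that differed most between libraries in macrophage-like cells (Rasgrp1) and of a gene highest in endothelial-like cells and without UMIs in T-like cells (Rasgrp3) are shown, 5′ to 3′ on the gene's strand, ending at the RefSeq or GENCODE M21 start, whichever lies further upstream. Where RefSeq gives 2 starts, the one nearest the GENCODE start was used. Capitals mark CpG pairs.
Prkd3, chr17:79020817-79021066, minus strand: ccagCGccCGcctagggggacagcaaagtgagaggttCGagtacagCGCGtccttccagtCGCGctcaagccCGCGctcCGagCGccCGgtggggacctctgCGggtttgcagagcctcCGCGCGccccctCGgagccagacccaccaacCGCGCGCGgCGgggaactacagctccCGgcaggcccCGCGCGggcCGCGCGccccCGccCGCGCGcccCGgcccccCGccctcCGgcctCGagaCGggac
Rasgrp1, chr2:117343002-117343127, minus strand: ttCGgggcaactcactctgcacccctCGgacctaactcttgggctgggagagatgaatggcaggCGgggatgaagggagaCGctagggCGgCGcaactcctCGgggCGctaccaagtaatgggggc
Rasgrp3, chr17:75435655-75435895, plus strand: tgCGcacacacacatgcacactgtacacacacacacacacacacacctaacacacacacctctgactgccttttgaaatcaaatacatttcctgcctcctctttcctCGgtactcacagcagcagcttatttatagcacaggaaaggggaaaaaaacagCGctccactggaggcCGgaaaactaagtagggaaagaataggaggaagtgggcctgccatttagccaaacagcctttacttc
Over the full 250 bases before the RefSeq start the Prkd3 promoter held 38 CpG, the Rasgrp1 promoter 21 and the Rasgrp3 promoter 4, against a median of 6 over 32851 mouse promoters. At least as many CpG as in Prkd3 were found in 1.88% of those promoters, as many as in Rasgrp1 in 16.3% and as many as in Rasgrp3 in 62.2%. The other RefSeq start, not shown, had 2 CpG for Prkd3 (81.2%) and 8 for Rasgrp3 (43.0%). The order of these 2 genes thus depends on the start used. CpG reads the same on both strands. The count is a description of these windows and was not tied to the levels.

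Rasgrp1, the exchange factor of the T cell receptor pathway, was highest in T-like cells and in the Foxp3 cluster, and it was also measured in monocyte-like, macrophage-like and NK-like cells. T-like cells showed 118 CPM (82.2 to 164) under control and 140 CPM (107 to 179) under PKCi. The Foxp3 cluster had 109 and 123 CPM, and its intervals overlapped those of T-like cells in both libraries. NK-like cells had 26.8 and 46.6 CPM, from 12 and 27 UMIs. That class also held T cell markers: the 8 of them summed to 974 and 723 CPM, with only Cd5 at 0, in the control library. In T-like cells they summed to 4142 and 4441 CPM. The part of T cells in the NK-like levels of Rasgrp1 and Dgka was not tested. Neutrophil-like cells held 0 UMIs of Rasgrp1 in both libraries, which allows up to 2.05 and 3.61 CPM, and fibroblast-like cells also held none.

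**Figure D1:**
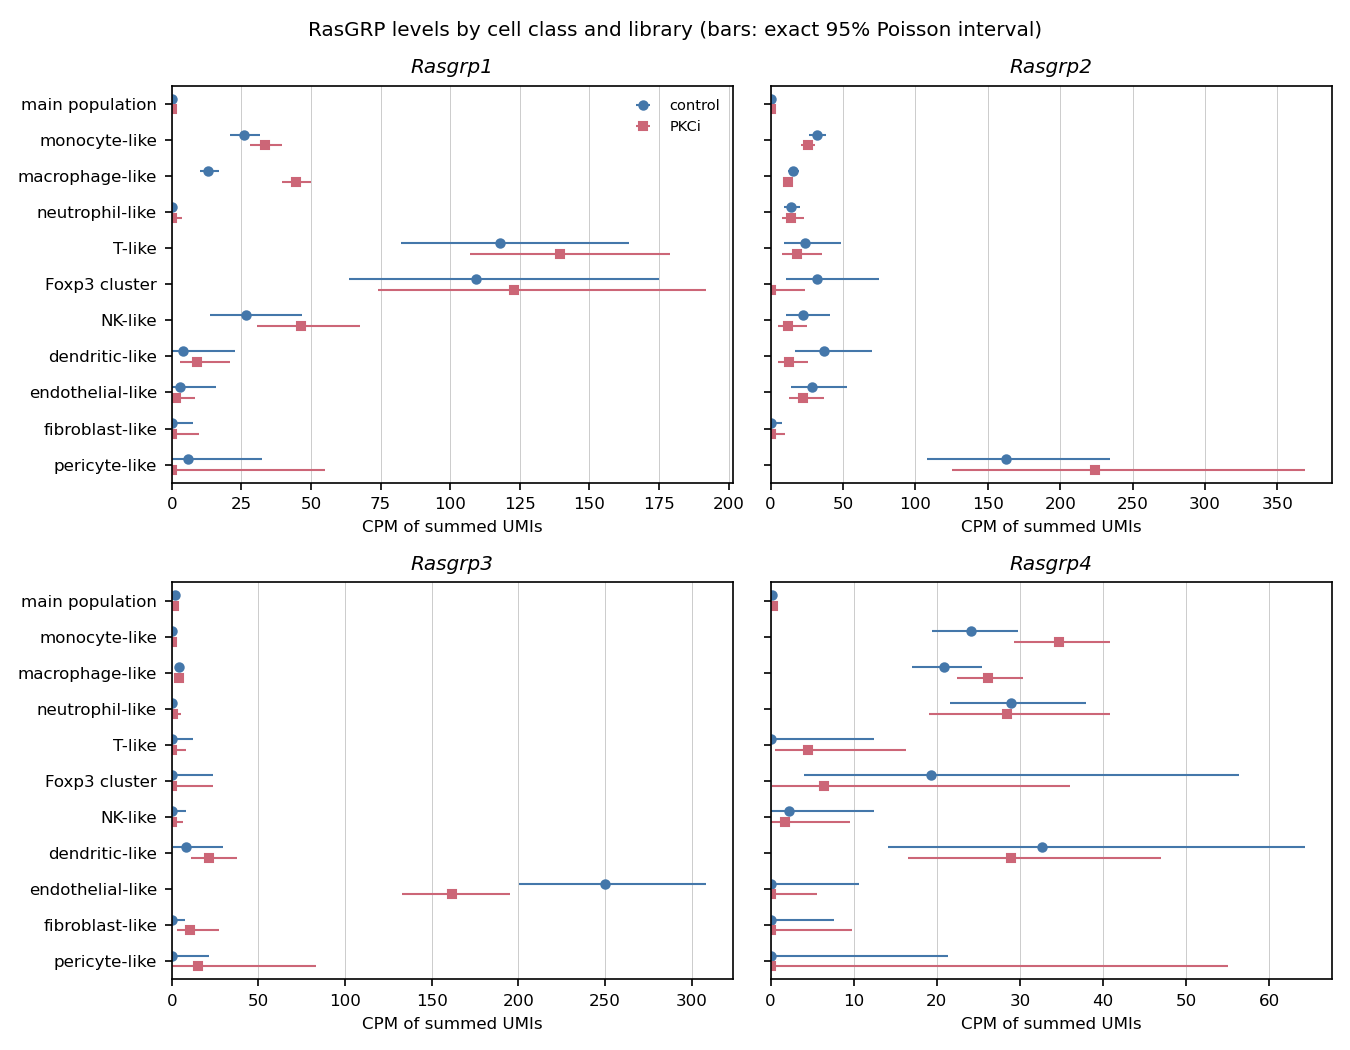
Levels of the 4 RasGRP genes (horizontal axis, CPM of summed UMIs, linear) in 11 cell classes (vertical axis) in the control library (circles) and the PKCi library (squares), with exact 95% Poisson intervals. Rasgrp1 is highest in T-like cells and the Foxp3 cluster, Rasgrp2 in pericyte-like, Rasgrp3 in endothelial-like, and Rasgrp4 is spread over monocyte-like, macrophage-like, neutrophil-like and dendritic-like cells.

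Among member ratios in the 4 large classes with at least 20 UMIs over both libraries, that of Rasgrp1 in macrophage-like cells was the largest. The sums held 63 UMIs or 13.1 CPM (10.1 to 16.8) in the control library and 295 UMIs or 44.7 CPM (39.7 to 50.1) in the PKCi library. The PKCi level was 3.40 times the control level (2.58 to 4.54). The PKCi value was thus well above the control value, and the intervals lay apart. In monocyte-like cells the same gene stood at 26.1 CPM (21.1 to 31.9) and 33.5 CPM (28.2 to 39.5), a ratio of 1.28 (0.983 to 1.69). In the control library macrophage-like cells therefore had less Rasgrp1 than monocyte-like cells, and in the PKCi library they had more. The difference between the ratios of the 2 classes was not tested, since each treatment has 1 library.

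The UMIs of Rasgrp1 were spread over many macrophage-like cells. In the control library 39 cells held 1 UMI and 11 held more, and in the PKCi library 119 held 1 and 66 held more, with at most 4 and 7 UMIs in a cell. With each cell thinned to 5000 UMIs, which left out 24 and 72 shallower cells, 19 of 267 control cells (7.12%, exact Clopper-Pearson interval 4.34 to 10.9) and 92 of 470 PKCi cells (19.6%, 16.1 to 23.5) had a UMI of Rasgrp1. Without thinning the shares were 17.2% and 34.1%, although the macrophage-like cells of the PKCi library were shallower, with a median of 10790 UMIs against 15423. In the main population, which has a median of 38137 and 35309.5 UMIs, the thinned shares were 0.0415% and 0.135%, and in neutrophil-like cells 0 of 74 and 0 of 20 cells had a UMI, which the few cells left limit to 4.86% and 16.8%.

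Markers of T and NK cells were near 0 in macrophage-like cells. The 8 T cell markers summed to 5.01 CPM in the control library, with none at 0, and to 5.30 CPM in the PKCi library, with Cd5 at 0, against 4142 and 4441 CPM in T-like cells. The 7 NK markers summed to 2.30 and 5.15 CPM, with Ncr1, Klra8, Klre1 and Eomes at 0 in the control library and Klra8 and Eomes in the PKCi library. The 8 dendritic markers summed to 24.2 and 59.7 CPM, with 2 and 0 of them at 0, and moved with Rasgrp1. Dendritic-like cells had 4.08 CPM (0.103 to 22.7) and 9.04 CPM (2.93 to 21.1) of Rasgrp1. The 7 pericyte markers moved the same way, from 1.252 CPM with 3 at 0 to 23.3 CPM with none at 0. Pericyte-like cells held 1 and 0 UMIs of Rasgrp1, which allows up to 32.3 and 55.1 CPM. Fibroblast markers summed to 30.1 and 44.1 CPM, endothelial markers to 16.3 and 25.0 CPM and mast cell markers to 0.626 and 2.12 CPM, and the last 2 lists had 2 and 0 and 5 and 3 members at 0. Platelet markers went the other way, at 13577 and 4637 CPM, with Gp9 and Gp1bb at 0 in both libraries. Ppbp, a gene of that list, was among the leading genes of the macrophage-like cluster itself. The part of these cells in the Rasgrp1 difference was not tested beyond the levels given.

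Monocyte-like and macrophage-like cells were then clustered together without the 10 genes, which gave 7 sub-clusters. In the first 4, which hold most monocyte-like cells, Rasgrp1 differed little between libraries. Sub-cluster 1 (Sema3c, Slpi, Nos2) had 26.3 and 26.4 CPM, sub-cluster 2 (Ccl17, Ccr7) 32.9 and 28.6, sub-cluster 3 (Ace, Ly6c2, Chil3) 27.1 and 33.0, and sub-cluster 4 (Car4, Cxcl14) 24.9 and 32.5, and all of their ratio intervals include 1. In the other 3, which hold most macrophage-like cells, the PKCi library was higher. Sub-cluster 5 (Fabp4, Ppbp, Gpnmb) had 14.6 and 33.1 CPM, a ratio of 2.26 (1.23 to 4.12). Sub-cluster 6 (Lyve1, Cbr2, Cd163), with 129 and 318 cells, had 12.1 and 50.1 CPM, a ratio of 4.15 (2.83 to 6.28). Sub-cluster 7 (Alox15, Retnla), with 41 and 163 cells, had 14.4 and 39.7 CPM, a ratio of 2.77 (1.44 to 5.95). The libraries differ in how many cells each sub-cluster holds: with the same mix of sub-clusters in both, an alternative chosen after seeing the data, Rasgrp1 in macrophage-like cells was 13.6 and 43.4 CPM, a ratio of 3.19. In monocyte-like cells the same mix gave 24.5 and 37.2 CPM of Rasgrp1, a ratio of 1.52, just past 1.5-fold. Over 12 alternatives the monocyte-like log2 ratio ranged from -0.09 to 0.60. Cd3e had 0 to 3 UMIs in each sub-cluster and library.

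**Figure D2:**
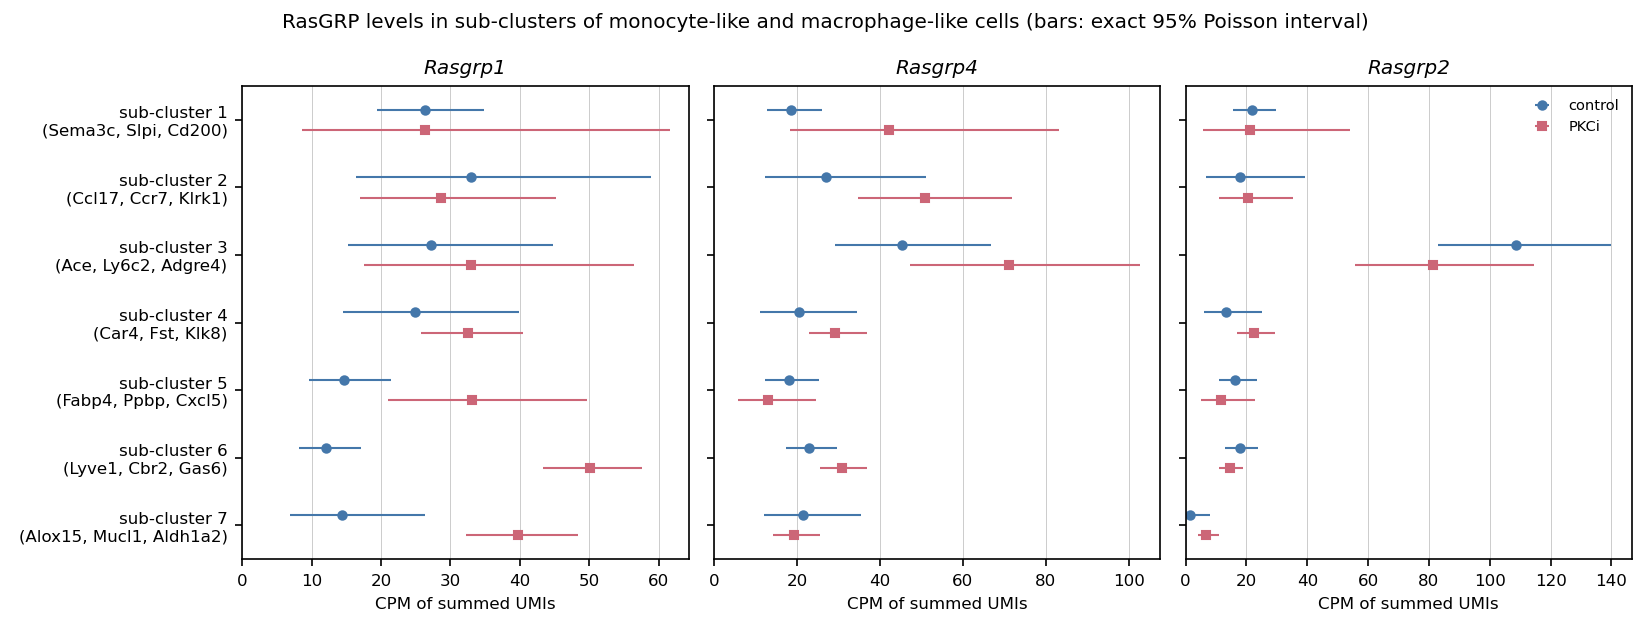
Levels of Rasgrp1, Rasgrp4 and Rasgrp2 (horizontal axis, CPM of summed UMIs, linear) in 7 sub-clusters of monocyte-like and macrophage-like cells (vertical axis, with 3 leading genes each) in the control library (circles) and the PKCi library (squares), with exact 95% Poisson intervals. For Rasgrp1 the 2 libraries lie close in sub-clusters 1 to 4, and the PKCi library lies higher in sub-clusters 5 to 7, by 2.26 to 4.15 times.

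In the main population Rasgrp1 was at 0.132% of its mean level in T-like cells, with 16 UMIs (0.0795 CPM) in the control library and 54 (0.261 CPM) in the PKCi library. The ratio was 3.28 (1.85 to 6.14), or 1.68 on the log2 scale, and 3.31 on that scale with each cell weighted equally. The PKCi level was the higher one in each of the 8 larger clusters of the main population, those of 100 cells or more per library, but these held only 0 to 4 control UMIs each, 11 in all, against 38. Ptprc, a gene of blood cells, moved the same way there, at 1.29 and 1.68 CPM, and the part of free RNA or of blood cells in this difference was not tested.

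Rasgrp3, known from B cells and endothelium, was highest in endothelial-like cells, at 250 CPM (200 to 309) in the control library and 162 CPM (133 to 195) in the PKCi library. The next class, dendritic-like cells, had 8.16 and 21.7 CPM, from 2 and 12 UMIs, and macrophage-like cells had 3.97 and 4.09. T-like cells, NK-like cells and the Foxp3 cluster held 0 UMIs in both libraries, and monocyte-like cells held 1 and 0. The 87 control UMIs in endothelial-like cells came from 12 of 13 cells, with 28 in 1 of them, so the 1.55-fold lower PKCi level (1.15 to 2.07) rests on few cells. On the log2 scale this ratio was -0.63 and became -0.48 without the cell with most UMIs in each library, which is under 1.5-fold. In the main population Rasgrp3 was lower in the PKCi library too: 351 UMIs or 1.74 CPM (1.57 to 1.94) against 228 UMIs or 1.10 CPM (0.962 to 1.253), 1.58-fold lower (1.34 to 1.88). The ratio was below 1 in 6 of the 8 clusters and ranged from 0.366 to 1.57. The ratio was lowest in the clusters led by Lgals1 (1.08 and 0.396 CPM) and by Car6 and Gm47080 (3.06 and 1.20 CPM), and above 1 in the clusters led by Ptn (0.703 and 1.10 CPM) and by Rsad2 and Cxcl10, which held only 2 and 5 UMIs.

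Rasgrp2, the exchange factor for Rap1 in platelets and leukocytes, was highest in pericyte-like cells, at 162 CPM (108 to 234) from 9 control cells and 224 CPM (125 to 369) from 7 PKCi cells. Monocyte-like cells had 31.8 and 25.6 CPM, macrophage-like cells 15.7 and 12.1, neutrophil-like cells 13.9 and 13.7 and endothelial-like cells 28.7 and 22.5. Dendritic-like cells had 36.7 and 12.7 CPM, the Foxp3 cluster 32.1 and 0, T-like cells 23.6 and 18.0 and NK-like cells 22.3 and 12.1. Endothelial-like cells also held 857 and 808 CPM of the 7 pericyte markers, with none at 0. Pericyte-like cells held 944 and 522 CPM of the 8 endothelial markers. The part of such mixing in the Rasgrp2 and Dgkh levels of these 2 classes was not tested. Among the myeloid sub-clusters it was highest in sub-cluster 3, led by Ace, Ly6c2, Adgre4, Hp, Pglyrp1 and Chil3, at 109 CPM (82.9 to 140) and 81.3 CPM (55.6 to 115), while the other 6 lay between 1.44 and 22.6 CPM. The ratio in monocyte-like cells, 0.804 (0.613 to 1.06), turned to 1.21 with the same mix of sub-clusters in both libraries, so no direction is given. Fibroblast-like cells held 0 UMIs in both libraries.

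Rasgrp4, known from mast cells and other myeloid cells, was measured in 4 classes at like levels. Monocyte-like cells had 24.1 CPM (19.4 to 29.7) and 34.7 CPM (29.3 to 40.8), macrophage-like cells 20.9 and 26.2, neutrophil-like cells 29.0 and 28.4, and dendritic-like cells 32.7 and 28.9. The last 2 pairs depend on the processing: on the log2 scale the neutrophil-like ratio ranged from -1.46 to 0.74 over 11 alternatives and the dendritic-like ratio from -3.13 to 0.16 over 10, with the lowest values at a higher minimum of genes and at resolution 0.6. T-like cells held 0 and 2 UMIs, NK-like cells 1 and 1, and endothelial-like, fibroblast-like and pericyte-like cells none. The Foxp3 cluster had 19.3 CPM (3.98 to 56.4) and 6.47 CPM (0.164 to 36.1), from 3 and 1 cells with 1 UMI each. Its 8 neutrophil markers summed to 2353 and 175 CPM, and their part in this was not tested. The ratio in monocyte-like cells was 1.44 (1.09 to 1.89). With the same mix of sub-clusters in both libraries the levels were 20.6 and 43.6 CPM, a ratio of 2.12, and the PKCi value was above the control value in each of the sub-clusters 1 to 4, at 18.6 and 42.2, 27.0 and 50.9, 45.2 and 71.1, and 20.5 and 29.2 CPM, although all 4 ratio intervals include 1. It was also above in sub-cluster 6, at 23.0 and 30.9 CPM, and below in sub-clusters 5 and 7, at 18.0 and 12.95 and at 21.5 and 19.3 CPM, again with intervals that include 1. Among all barcodes 1, in the PKCi library, had 1509 UMIs of mast cell markers, where the next highest had 15, and it held 0 UMIs of Rasgrp4 among its 12250 UMIs. At the levels of the 4 classes above, a cell of this depth would often hold none, so absence is not shown. That barcode was kept and lies in the NK-like class, whose 7 mast cell markers summed to 112 CPM in the control library and 2749 CPM in the PKCi library.

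Prkd3, a protein kinase D with broad expression, had UMIs in every class. The main population had 29.5 CPM (28.7 to 30.2) and 29.95 CPM (29.2 to 30.7), a ratio of 1.02 (0.981 to 1.05). Monocyte-like cells had 46.1 and 55.3 CPM, macrophage-like cells 35.9 and 44.7, and neutrophil-like cells 73.5 and 64.6, all within 1.5-fold between libraries. In 3 small classes the PKCi library was 4.005 to 4.65 times higher, each time over a control sum of at most 5 UMIs. T-like cells had 5 UMIs or 16.9 CPM (5.48 to 39.4) and 30 UMIs or 67.5 CPM (45.6 to 96.4), a ratio of 4.005 (1.54 to 13.2). NK-like cells had 5 and 26 UMIs, or 11.2 and 44.8 CPM, a ratio of 4.02 (1.52 to 13.4). Dendritic-like cells had 4 and 42 UMIs, or 16.3 and 75.9 CPM, a ratio of 4.65 (1.69 to 17.9), with 16 of the 42 in 1 cell. The make-up of the dendritic-like class differed between libraries: its 4 plasmacytoid dendritic markers summed to 32.7 and 311 CPM, with 2 and 0 of them at 0, and its 7 monocyte markers to 1237 and 700 CPM, and the part of this in the Prkd3 difference was not tested. The NK-like class joins a cluster led by Gzmg and Gzme, with 12 control and 11 PKCi cells, and another led by Gzma and Xcl1, with 13 and 40. The part of this in the NK-like differences of Prkd3, Rasgrp1 and Dgka was not tested. The mast cell marker barcode among NK-like cells held 1 UMI of Prkd3. The Foxp3 cluster held only 1 and 2 UMIs.

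Prkd2, the protein kinase D known from lymphocytes and endothelium, was highest in endothelial-like cells, at 74.7 CPM (48.8 to 110) and 82.3 CPM (62.0 to 107). In T-like cells it had 2 UMIs or 6.75 CPM (0.817 to 24.4) and 18 UMIs or 40.5 CPM (24.0 to 64.0), a ratio of 6.01 (1.44 to 53.4), and the Foxp3 cluster had 25.7 and 32.4 CPM from 4 and 5 UMIs. The main population had 5.82 and 5.24 CPM, and monocyte-like, macrophage-like and neutrophil-like cells lay between 3.29 and 8.81 CPM. Prkd1 was highest in fibroblast-like cells of the control library, at 45.7 CPM (28.6 to 69.2) from 22 UMIs, and stood at 18.7 CPM (7.51 to 38.5) from 7 UMIs in the PKCi library. Of those 7 UMIs, 6 came from 1 cell, and without the cell with most UMIs in each library the log2 ratio moved from -1.22 to -2.95. Endothelial-like cells had 23.0 and 13.5 CPM of Prkd1 and the main population 2.08 and 1.84, while T-like, NK-like and dendritic-like cells and the Foxp3 cluster held 0 UMIs.

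**Figure D3:**
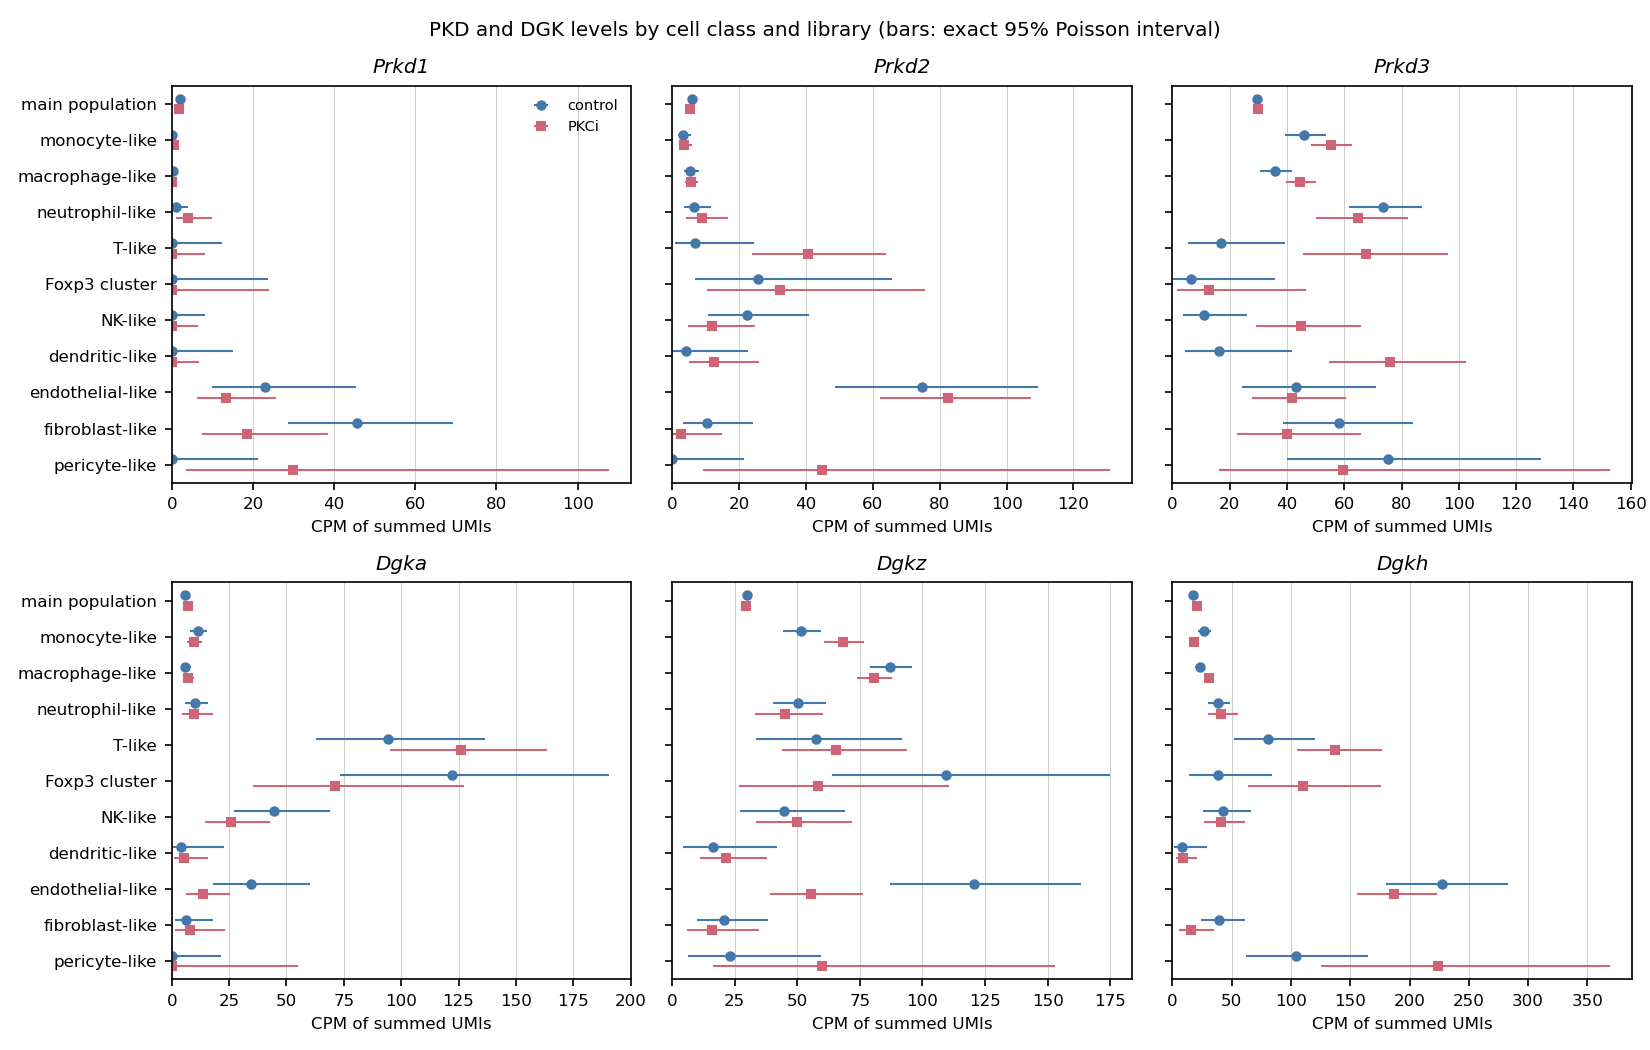
Levels of the 3 protein kinase D genes and the 3 diacylglycerol kinase genes (horizontal axis, CPM of summed UMIs, linear) in 11 cell classes (vertical axis) in the control library (circles) and the PKCi library (squares), with exact 95% Poisson intervals. Prkd3 and Dgkz are present in every class, Dgka is highest in T-like cells and the Foxp3 cluster, Prkd2 and Dgkh are high in endothelial-like cells, and the wide bars belong to classes with few UMIs.

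Dgka, which ends diacylglycerol signals in T cells and is known to be high in resting ones, was highest in T-like cells and the Foxp3 cluster. T-like cells had 94.4 CPM (62.8 to 136) and 126 CPM (95.2 to 164), the Foxp3 cluster 122 and 71.2, and NK-like cells 44.7 and 25.9, with overlapping intervals between the first pair in both libraries. All other classes were at 34.5 CPM or less. T-like cells with a UMI of Cd8a or Cd8b1, 22 and 44 cells, had 55.9 and 80.5 CPM of Dgka, and the 14 and 48 T-like cells without one had 234 and 199 CPM. The cells without a Cd8 UMI were higher in both libraries, and the intervals of the groups (29.8 to 95.7 against 131 to 386, and 50.5 to 122 against 138 to 278) lay apart. Rasgrp1 was ordered the same way, at 98.99 and 113 CPM against 187 and 181 CPM, with overlapping intervals. Dgkh was ordered the other way, at 98.99 and 172 CPM in cells with a Cd8 UMI against 15.6 and 81.8 CPM in cells without, the first of these from 1 UMI. A shallow cell can lack a Cd8 UMI by sampling, so the second group is not wholly CD8-negative.

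Dgkz, the zeta kinase that restrains Ras signalling in T cells, had UMIs in every class. Macrophage-like cells had 87.0 CPM (78.9 to 95.8) and 80.6 CPM (73.9 to 87.7), and monocyte-like cells 51.6 CPM (44.5 to 59.5) and 68.4 CPM (60.7 to 76.8), a ratio of 1.33 (1.10 to 1.60). The main population had 30.1 and 29.6 CPM, and T-like cells 57.3 and 65.3. In endothelial-like cells Dgkz had 42 UMIs or 121 CPM (87.0 to 163) in the control library and 37 UMIs or 55.4 CPM (39.0 to 76.3) in the PKCi library, 2.18-fold lower (1.37 to 3.49), and 12 of the 42 control UMIs came from 1 cell. Blood cell markers moved with it in that class: the 8 macrophage markers summed to 388 and 142 CPM, with 0 and 2 of them at 0, the 6 platelet markers to 1018 and 28.4 CPM, with Gp9, Gp1bb and Treml1 at 0 in each, and the 8 neutrophil markers to 259 and 14.97 CPM, with 2 and 3 at 0. The platelet list is not particular to platelets here, since it summed to 13577 and 4637 CPM in macrophage-like cells. Their part in the lower Dgkz was not tested. Dgkh, the eta kinase, was high in endothelial-like cells, at 227 CPM (180 to 283) and 187 CPM (156 to 223), in pericyte-like cells, at 104 and 224 CPM from 18 and 15 UMIs, and in T-like cells, at 80.9 CPM (51.9 to 120) and 137 CPM (105 to 176). The T-like ratio was 1.70 (1.04 to 2.85). On the log2 scale it was 0.74, and 0.35 with each cell weighted equally, which is under 1.5-fold. In monocyte-like cells Dgkh had 26.9 and 18.2 CPM, 1.48-fold lower (1.08 to 2.02), and in macrophage-like cells 23.2 and 30.6 CPM, a ratio of 1.32 (1.04 to 1.68), so the 2 classes differed in direction, which was not tested. At clustering resolution 1.5 the monocyte-like log2 ratio moved from -0.56 to 0.0044. Fibroblast-like cells had 19 and 6 UMIs of Dgkh, 2.47-fold lower in CPM (0.947 to 7.54).

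Within the main population Dgka and Prkd1 differed more between clusters than between the libraries summed over all clusters. Dgka stood at 5.68 CPM (5.36 to 6.02) in the control library and 7.01 CPM (6.66 to 7.38) under PKCi. The ratio, 1.23 (1.14 to 1.33), lay above 1 in 6 of 8 clusters and ranged from 0.909 to 1.69. Its highest level was in the cluster led by Ptn, Sema3a and Ogn, at 11.8 and 13.4 CPM, where the other 7 lay between 3.00 and 7.68 CPM. Prkd1 was highest in the same cluster, at 6.09 and 4.66 CPM, with the other 7 between 0.499 and 2.02 CPM. Its library ratio differed in direction between clusters, above 1 in 3 and below 1 in 5. The lowest, 0.461 (0.270 to 0.765), was in the cluster led by Pif1. The highest, 2.26 (1.33 to 3.96), was in the cluster led by Car6 and Gm47080. Dgkh stood at 17.1 CPM (16.5 to 17.7) and 20.8 CPM (20.2 to 21.5), a ratio of 1.22 (1.17 to 1.27) that lay above 1 in 6 of 8 clusters and reached 1.53 in the cluster led by Car6, Cth and Gdf15. Prkd3 and Dgkz were even, with ratios from 0.970 to 1.19 and from 0.9298 to 1.16 over the 8 clusters. The clusters were found with these genes among all others, so their differences between clusters are a description.

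**Figure D4:**
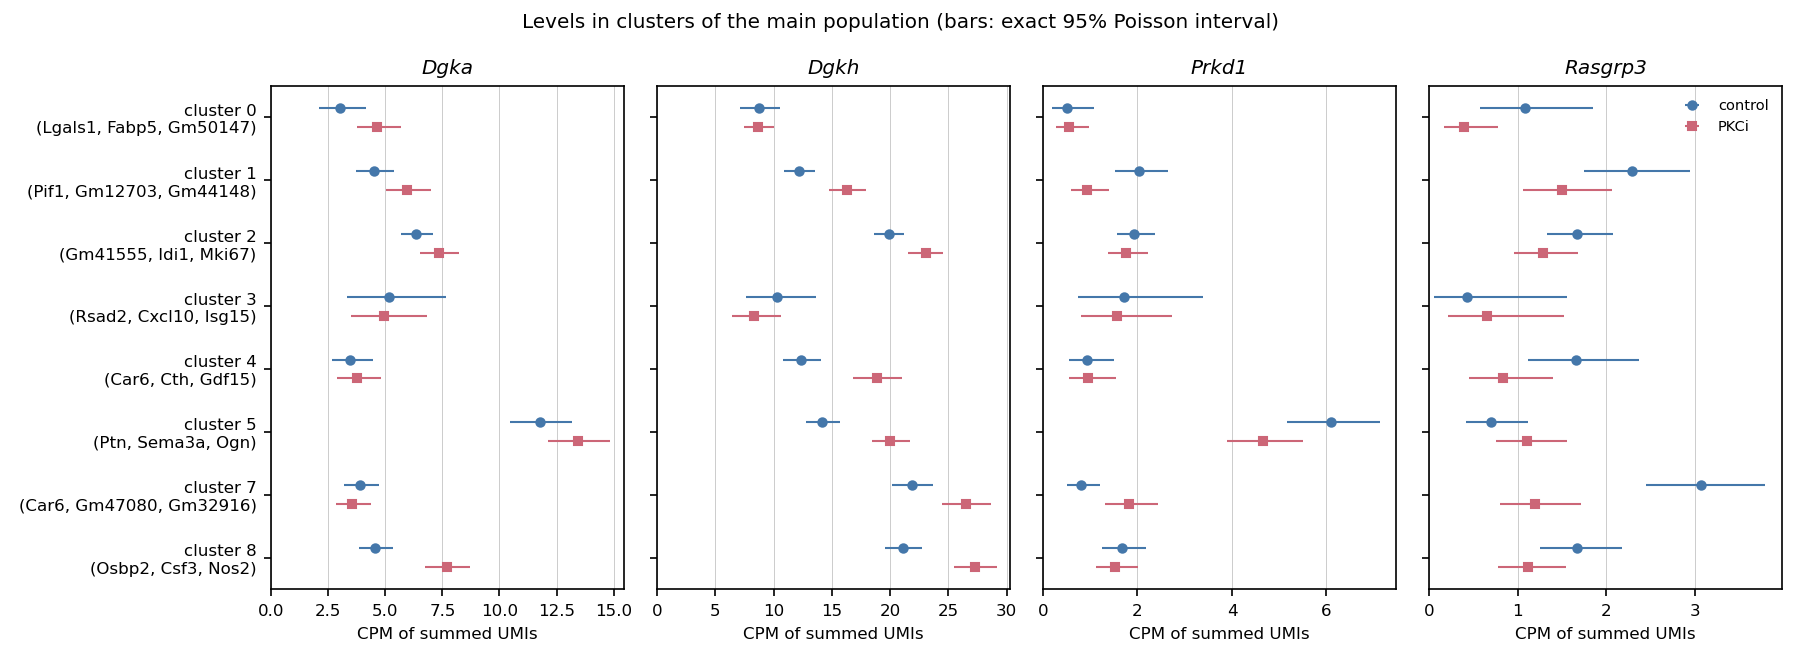
Levels of Dgka, Dgkh, Prkd1 and Rasgrp3 (horizontal axis, CPM of summed UMIs, linear) in 8 clusters of the main population (vertical axis, with 3 leading genes each) in the control library (circles) and the PKCi library (squares), with exact 95% Poisson intervals. Dgka and Prkd1 are highest in the cluster led by Ptn, and Rasgrp3 is lower in the PKCi library in 6 of 8 clusters.

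Counted by a fixed size, a ratio past 1.5-fold with at least 20 UMIs over both libraries, few members passed in the 4 large classes. In the main population all 10 members were measured: 1 was higher (Rasgrp1) and 1 lower (Rasgrp3), where 5.91% of 17725 genes were higher and 6.72% lower. In macrophage-like cells 1 of 9 was higher (Rasgrp1) and 0 lower, against 15.7% and 5.83% of 11444 genes. In monocyte-like cells 0 of 8 passed, against 18.4% and 8.61% of 10301 genes, and in neutrophil-like cells 0 of 7, against 28.3% and 8.87% of 9107 genes. The median log2 ratio of the members measured was -0.00 in the main population, against -0.02 over all genes. It was 0.19 against 0.15 in monocyte-like cells, 0.30 against 0.13 in macrophage-like cells, and -0.00 against 0.30 in neutrophil-like cells. The shares of members past this size were thus near or below those of all genes. The shift of all genes is over 0.1 in the 3 myeloid classes, and relative to it the log2 ratio of Rasgrp1 in macrophage-like cells was 1.63.

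**Figure D5:**
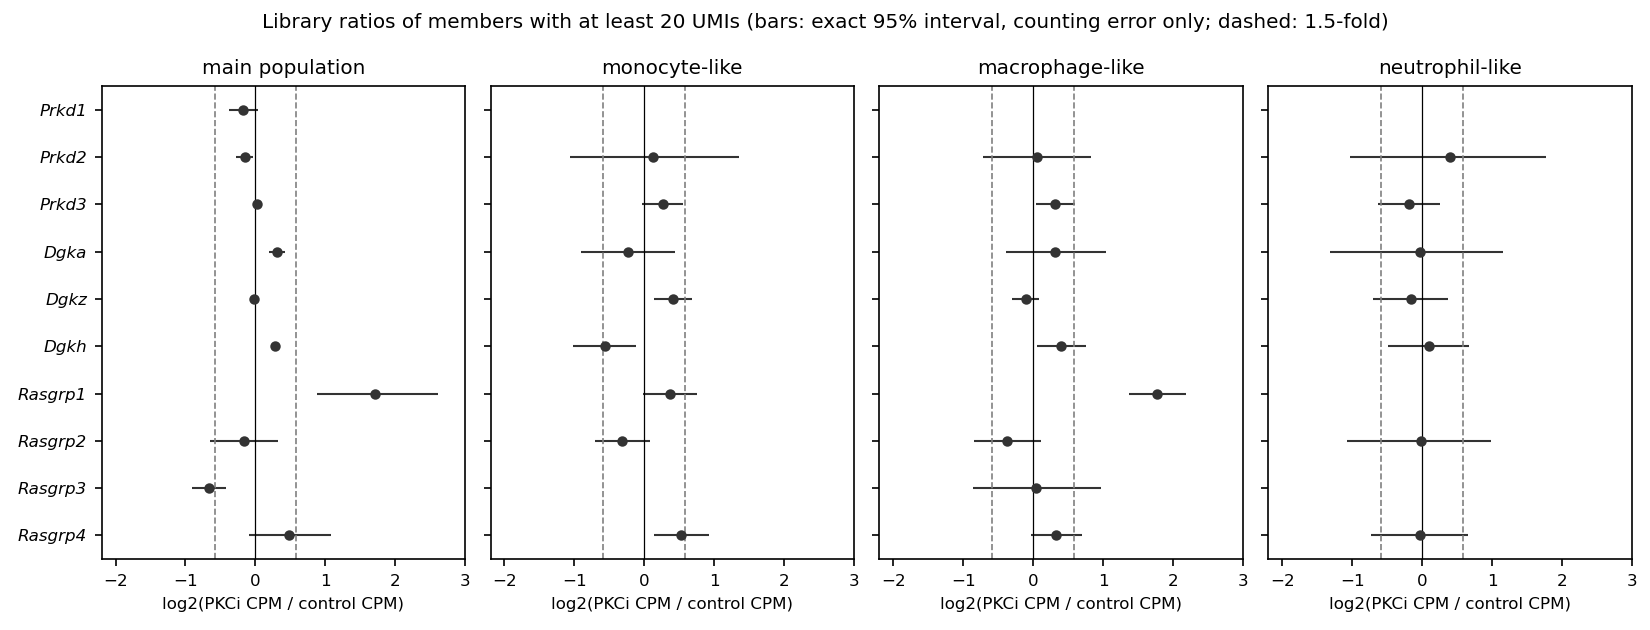
Log2 ratio of the PKCi to the control level (horizontal axis) of each member (vertical axis) with at least 20 UMIs in the 4 large classes. Bars are exact 95% intervals for counting error only and dashed lines mark 1.5-fold. Rasgrp1 in the main population and in macrophage-like cells lies to the right of the dashed line, and Rasgrp3 in the main population lies to the left of it.

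In the small classes more members passed, over sums of few UMIs. In T-like cells 3 of 6 were higher (Prkd2, Prkd3, Dgkh), against 17.4% of 5178 genes higher and 12.7% lower. In NK-like cells 2 of 5 were higher (Prkd3, Rasgrp1) and 1 lower (Dgka), against 17.8% and 10.1%. In dendritic-like cells 1 of 2 was higher (Prkd3), against 20.2% higher and 14.6% lower. In endothelial-like cells 3 of 7 were lower (Dgka, Dgkz, Rasgrp3), against 12.2% higher and 16.9% lower, and in fibroblast-like cells 2 of 3 were lower (Prkd1, Dgkh), against 15.2% and 23%. In the Foxp3 cluster 1 of 4 was higher (Dgkh) and 2 lower (Dgka, Dgkz), against 18.8% and 14.4%, and in pericyte-like cells 1 of 2 was higher (Dgkh), against 17.5% and 23%.

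The pathway around these genes was followed with 7 lists of 61 other genes. In macrophage-like cells 14 of 45 measured genes were past 1.5-fold higher and 1 lower, where 15.7% and 5.83% of all genes were. In monocyte-like cells 9 of 44 were higher and 5 lower, beside 18.4% and 8.61% of all genes. In neutrophil-like cells 8 of 34 were higher and 3 lower, beside 28.3% and 8.87%, and in the main population 4 and 3 of 57, beside 5.91% and 6.72%. The shares of higher genes outside macrophage-like cells were thus near or below those of all genes. The list counts below are read against the same shares. Of the 8 GTPases that RasGRPs can load, 2 were higher in macrophage-like cells and 2 in monocyte-like cells, and 0 passed in the main population and in neutrophil-like cells. Rras2, which encodes the Ras relative TC21, had 13 UMIs or 2.71 CPM in the control library and 121 UMIs or 18.3 CPM in the PKCi library in macrophage-like cells, a ratio of 6.76 (3.81 to 13.1). In monocyte-like cells it had 6 and 48 UMIs, or 1.65 and 11.5 CPM, a ratio of 6.98 (2.98 to 19.9). It was therefore low in both classes of the control library and several times higher in the PKCi library, while the main population had 35.3 and 33.1 CPM and dendritic-like cells 122 and 88.6 CPM. Mras was the other one in macrophage-like cells, at 6.26 and 12.1 CPM, a ratio of 1.94 (1.26 to 3.05). The 8 dendritic markers moved with Rras2, at 28.0 and 63.6 CPM in monocyte-like cells and 24.2 and 59.7 CPM in macrophage-like cells. Sub-cluster 2 (Ccl17, Ccr7, Cd209a), with 115 monocyte-like cells, held 38 control and 78 PKCi cells. The part of dendritic cells in the Rras2 differences was not tested.

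Of the 13 other enzymes that make or use diacylglycerol, 5 of 11 measured were higher and 1 lower in macrophage-like cells, and the list's median log2 ratio was 0.38, beside 15.7% and 5.83% and a median of 0.13 over all genes. Sgms1, a sphingomyelin synthase that releases diacylglycerol in the Golgi, had 254 and 507 CPM there, a ratio of 1.998 (1.87 to 2.13), and its relative Sgms2 had 88.7 and 48.5 CPM, 1.83-fold lower. Dgat1, which turns diacylglycerol into triglyceride, had 18.8 and 29.2 CPM, and Lpin1, a phosphatidic acid phosphatase, 18.2 and 30.4 CPM. In monocyte-like cells 3 were higher and 3 lower of 11. Plpp3, a lipid phosphatase of the cell surface, had 16.7 and 5.98 CPM there, 2.80-fold lower. Lpin2, also a phosphatase of phosphatidic acid, had 106 and 47.1 CPM in monocyte-like cells, 2.25-fold lower, and 183 and 111 CPM in neutrophil-like cells. The make-up of monocyte-like cells differed between libraries: sub-cluster 1 held 250 control and 40 PKCi cells, and sub-cluster 4 held 61 and 260. Levels with the same mix of sub-clusters were made for the members only. The part of this mix in the monocyte-like and macrophage-like differences of pathway genes, among them Lpin2, Plpp3, Chn2 and Hdac9, was not tested. In the main population 1 of 13 passed, Lpin3, at 2.44 and 3.81 CPM.

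Of the 12 phospholipases C, 3 of 11 were higher and 1 lower in the main population, among them Plcb1 at 0.869 and 1.77 CPM, a ratio of 2.04 (1.70 to 2.45). Plce1 was also higher, at 0.273 and 0.473 CPM, and Plch2 lower, at 0.214 and 0.116 CPM. Plcb1 stood at 682 and 767 CPM in monocyte-like cells, so its level in the main population was far below that. In macrophage-like cells 2 of 6 were higher, among them Plcg1 at 1.88 and 7.27 CPM, and in monocyte-like cells 2 of 5, Plcb2 at 7.68 and 17.5 CPM and Plcb3 at 8.78 and 13.9 CPM. Of the 6 other C1 domain receptors, Chn2, which encodes beta-chimaerin, was the 1 of 3 measured that passed in both monocyte-like cells, at 3.29 and 10.8 CPM, and macrophage-like cells, at 1.88 and 9.09 CPM, while Unc13c was lower in the main population, at 0.795 and 0.444 CPM. Both Ras exchange factors measured in macrophage-like cells beside the RasGRPs were higher, Sos1 at 17.1 and 27.7 CPM and Sos2 at 25.9 and 40.6 CPM.

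Of the 11 substrates of protein kinase D, 2 of 10 were higher in macrophage-like cells, and 1 was higher and 1 lower of 10 in monocyte-like cells. These counts lie near or below the shares of all genes, 15.7% higher in macrophage-like and 18.4% in monocyte-like cells, and the list's median log2 ratios of 0.12 and 0.19 lie beside 0.13 and 0.15 over all genes. Hdac9, a class II histone deacetylase, had 116 and 187 CPM in macrophage-like cells and 16.7 and 51.4 CPM in monocyte-like cells, ratios of 1.62 (1.46 to 1.79) and 3.07 (2.30 to 4.15). Hdac4 was the other in macrophage-like cells, at 21.9 and 36.5 CPM. In neutrophil-like cells, where 28.3% of all genes were higher and 8.87% lower, 3 of 9 were higher and 2 lower. The higher ones were Hdac7 at 13.9 and 26.4 CPM, Cttn at 18.4 and 30.4 CPM and Kidins220 at 30.6 and 46.0 CPM. The lower ones were Col4a3bp, which encodes the ceramide transporter CERT, at 149 and 86.2 CPM, and Hdac5 at 22.8 and 10.8 CPM. In the main population 0 of 11 passed. Levels there were 25.2 and 24.8 CPM of Hdac7, 41.8 and 44.5 of Cttn and 42.6 and 44.2 of Kidins220. Col4a3bp stood there at 50.7 and 49.6 CPM and Hdac5 at 7.23 and 7.09. The neutrophil-like levels of these genes lay nearer to those of the main population in the PKCi library, where Krt8 was also higher. The part of free RNA in them was not tested. Of the 7 other diacylglycerol kinases 0 of 5 passed in macrophage-like cells and 1 of 6, Dgkg, in the main population, where it was lower, at 0.189 and 0.0965 CPM. Dgkd was the 1 of 2 measured that passed in neutrophil-like cells, at 56.3 and 90.1 CPM, in the class whose own markers stood at 90861 and 22497 CPM.

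Likeness to other genes was taken as Pearson's r of log2(CPM + 1) over 16 sums, 8 classes in each of the 2 libraries, among 16623 genes. The sums of a library share depth and free RNA, and the same classes recur in both libraries, so r is a description. The genes most like Dgka were the T cell receptor chains Cd3g (0.97) and Cd3d (0.96) and the adhesion receptor Cd2 (0.96). Those most like Rasgrp1 were Gm4070 (0.96), Pik3cd (0.94), a lipid kinase of leukocytes, and Rasal3 (0.94), a Ras GTPase-activating protein. Rasgrp2 was most like Coro1a, Gpsm3 and Ncf4 (0.98, 0.98 and 0.97), and Rasgrp4 most like Tnfrsf13b, Nfam1 and Plbd1 (0.98, 0.95 and 0.95). Prkd1 was most like Slc2a10, Sec16b and Hoxc6, each at 0.98. Weaker likeness was found for Dgkh (Pik3ca, Mier1 and Phf20l1, 0.91 to 0.89), Dgkz (Ttc7b, Slc28a2 and Cd200r4, 0.90 to 0.89), Prkd2 (Eml4, Gmcl1 and Carns1, 0.86 to 0.85) and Prkd3 (Atxn1l, Gm20492 and Gm42659, 0.81 to 0.79). Rasgrp3 was most like Tlr3 (0.91), Dnaaf3 (0.81) and Zmynd15 (0.81), and with endothelial-like cells added, in 18 sums and chosen after seeing the data, most like Mansc1 (0.95), Tlr3 and 6430562O15Rik (0.91 each). With that class added, 5 members (Prkd1, Prkd2, Dgka, Dgkh and Rasgrp2) kept none of their 3 most like genes, and Dgka was then most like Cd28, Lck and Saraf (0.95, 0.94 and 0.93), so these names depend on the classes used.

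In GENCODE M21, on GRCm38, Prkd1, Prkd2, Prkd3, Rasgrp1 and Rasgrp3 overlap no other annotated gene. Dgka lies on chromosome 10 from 128720134 to 128744855 on the minus strand and overlaps Pmel on the other strand. Dgkz overlaps Mir6999 on its own strand and Gm9821 on the other, and Dgkh overlaps Gm48998 on its own strand and Gm26251 and Gm18368 on the other. Rasgrp2 overlaps Gm14965 and Rasgrp4 overlaps Gm16282 and Fam98c, all on the other strand. How reads in these overlaps were assigned is not given in the sources used here. Rasgrp1 lies on chromosome 2 from 117279993 to 117343001 on the minus strand and Rasgrp3 on chromosome 17 from 75435896 to 75529054 on the plus strand.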

How the data were processed

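RNA of single cells was measured in 1 control and 1 PKCi library. The authors deposited UMI counts for each gene in each barcode, from Cell Ranger 7.0.0 per the file headers. The submitters' processing notes name GRCm38, Cell Ranger and Seurat. Whether intronic reads were counted is not given in the sources used here.

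A minimum of 500 genes left out 247 control and 200 PKCi barcodes, a maximum of 20% mitochondrial UMIs left out 61 and 47 more, and Scrublet, run per library at an expected rate of 6%, called 111 and 132 doublets (1.74% and 1.83%), also left out. With scanpy 1.11.5, each cell was scaled to a total of 10000 and put on a log scale, and cells were clustered on 2000 variable genes, 30 components and 15 neighbours with Leiden at resolution 1.0. Mixed clusters were split once at 0.5. A cluster took a class name when at least 3 of its markers reached 50 CPM and were found in 5% of cells, its score (the mean of each marker's level over its highest level in any cluster) was at least 0.35, Krt8 was under 250 CPM and its 10 leading genes held no more markers of another class. A shallow cluster (median under 10410 UMIs) also needed a marker among those 10 genes. The data had been seen when these naming thresholds were set.

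UMIs were summed per class and library. Levels have exact Poisson intervals, ratios exact conditional binomial intervals and shares exact Clopper-Pearson intervals, all for counting error only. Log2 ratios had 0.5 counts added per sum. The ratio, its interval and the 1.5-fold call were tested on Poisson counts simulated from well-measured genes of macrophage-like cells, with known folds. Clustering, class names, small sums and UMIs gathered in few cells were not part of that test. No test between treatments was made, since each has 1 library. Named genes were the 10 members, for each member the 3 genes most like it, and, from the pathway lists, genes past 1.5-fold with at least 50 UMIs over both libraries in one of the 4 large classes (100 cells or more per library), plus the 2 genes of each list with most UMIs. The members, lists and markers were chosen with earlier results of these data known. Other filters, clusterings, scalings and thinnings were tried as alternatives.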

Additional observations from a re-analysis of the deposited data

How the results depend on the processing

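No paired analysis was possible because each treatment has 1 library. The log2 ratio of Rasgrp1 in macrophage-like cells, 1.76, ranged from 1.63 to 1.91 over 12 alternatives. The count of member ratios past 1.5-fold in the 4 large classes was 3; it was 6 with a higher minimum of genes per barcode, 6 with no doublets removed, 5 at resolution 1.5 and 5 when clustered without markers and members, and the cause was not tested. The count of pathway genes past 1.5-fold was 47; it was 87 with a minimum of 1 UMI and 77 with a smaller fold, both looser by construction. The share of macrophage-like cells with a Rasgrp1 UMI was 17.2% (control) and 34.1% (PKCi) with no thinning, and in the PKCi library 9.65% when thinned to 3000 UMIs, where a cell keeps fewer UMIs; the control share was then 5.28%. Among the other values 29 moved and 670 did not, and none that was past 1.5-fold changed direction. Rasgrp1 in the main population, 1.68 on the log2 scale, ranged from 1.27 to 3.31 over 10 alternatives. Rasgrp4 in monocyte-like cells, 0.52 on the log2 scale, was 1.24 at resolution 1.5 and 1.08 with the same mix of sub-clusters. Ratios of members in classes under 100 cells rest on few UMIs. Depth limits the neutrophil-like cells, with medians of 3448 and 2071 UMIs.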

Other observations

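Some cells were kept out of the named classes. A cluster of 16 control cells with endothelial markers, unnamed for its low depth, held 9 UMIs of Rasgrp2 (125 CPM, exact 95% Poisson interval 57.2 to 237) and 3 of Rasgrp3. A second one of 30 cells, 5 control and 25 PKCi, held 15 UMIs of Prkd2 (61.7 CPM, 34.5 to 102) and 7 of Rasgrp3 (28.8 CPM, 11.6 to 59.3). Both lay below the endothelial-like cells for Rasgrp3. A cluster of 7 cells led by the B cell genes Igkc and Bank1 held 2 UMIs of Rasgrp3, 2 of Rasgrp2 and 0 of Rasgrp1. The 243 barcodes called doublets held 26 and 49 UMIs of Rasgrp1, or 6.79 CPM (5.34 to 8.52) over both libraries.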
